A study of Mus musculus with 4 samples.

Results

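The miR-34 family was measured in small RNA libraries of resting bone marrow-derived macrophages (BMDMs), cells grown from mouse bone marrow in the growth factor M-CSF. The deposited table lists 1979 mature miRNAs, and the 5 members were taken from it by name: mmu-miR-34a-5p from 1 locus, and the strands mmu-miR-34c-5p, mmu-miR-34c-3p, mmu-miR-34b-5p and mmu-miR-34b-3p from another. The family was selected on a measured value, the low level of miR-34c-5p in the miR-146a-null library, and the levels of the other miR-34b/c strands in that library were known as well. All comparisons of that library with wild-type below are therefore descriptions, without a test.

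There were 4 libraries. WT A and WT B came from separate cultures of miR-146 wild-type BMDMs, KO from cultures without mir-146a, and 3′F from cultures homozygous for an allele in which the non-seed part of mir-146a is exchanged. All groups shared the 129/B6 mixed background, an age of 6 to 7 months, and growth for 8 to 9 days in 10 ng/ml M-CSF from 85000 cells per cm2. All were harvested 16 h after a change to medium free of LPS, so none was stimulated. The labels name several mice per genotype without saying whether a library pools them. The mutant alleles were kept as separate mouse lines, and the labels do not say from which line the WT libraries came, so line and allele cannot be told apart. KO and 3′F have 1 library each, so their differences from WT have no replicate check. Library totals lay between 11410940 and 19087640 counts, and levels are given in RPM, reads per 1000000 counts of a library. Intervals in parentheses are 95% intervals of the counts and cover counting error only, since PCR reads without molecular identifiers are not independent molecules. As a check of the labels, miR-146a-5p stood at 6253 RPM (WT A) and 5485 RPM (WT B) against 13.4 RPM (KO) and 6.64 RPM (3′F).

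MicroRNAs are cut from hairpin precursors, and each hairpin can give a strand from its 5′ arm (5p) and from its 3′ arm (3p). The strand that is loaded into an Argonaute protein finds its targets mainly through the seed, bases 2 to 8 from its 5′ end. miR-34a and miR-34b/c are well known as direct transcriptional targets of p53, and their 5p strands repress regulators of the cell cycle and of survival. miR-34a is made in many tissues, whereas miR-34b/c is best known from multiciliated epithelium, brain and testis, where the related miR-449 cluster has the same seed.

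The mature strands are shown first because their seeds set which lines can be read as a family. Of the 5 members, 4 had a mature sequence in the RefSeq table used (GRCm38.p6). In the following lines capitals mark the seed, and the other arm of the miR-34a hairpin and miR-449a-5p are added for comparison.
mmu-miR-34a-5p: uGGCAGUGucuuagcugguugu
mmu-miR-34b-5p: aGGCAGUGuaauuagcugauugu
mmu-miR-449a-5p: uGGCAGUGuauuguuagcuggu
mmu-miR-34b-3p: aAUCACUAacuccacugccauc
mmu-miR-34c-3p: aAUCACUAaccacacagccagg
mmu-miR-34a-3p: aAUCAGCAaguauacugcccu

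miR-34a-5p and miR-34b-5p had the seed GGCAGUG, which 4 miRNAs of the table with a sequence carried: these 2 strands, miR-449a-5p and miR-449c-5p. The 3p strands of miR-34b and miR-34c had the seed AUCACUA, which no other miRNA of the table with a sequence carried. They were identical at 17 of 22 positions. Counted from 1 at the 5′ end, miR-34c-3p differed from miR-34b-3p by U11C, C12A, U16A, U21G and C22G. miR-34a-5p and miR-34b-5p were identical without interruption only from base 2 to base 9.

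The family comes from 2 places in the genome (GRCm38, GENCODE vM21 annotation). Mir34a (ENSMUSG00000065493.1) is a hairpin of 102 nt on the plus strand, chr4:150068454-150068555, and its last 17 nt overlap an exon of Gm37795, an unconfirmed gene model on the same strand. Mir34b (ENSMUSG00000065492.1, 84 nt, chr9:51103562-51103645) and Mir34c (ENSMUSG00000065587.1, 77 nt, chr9:51103034-51103110) lie on the minus strand, 451 bp apart. Together they span 612 bp. Both lie within an intron of a transcript of Btg4, a protein-coding gene on the opposite strand, and no annotated exon touches them. The nearest gene on their own strand, 4833427G06Rik, lies 956 bp from Mir34c. No other annotated miRNA lies within 10 kb of any of the 3 hairpins.

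The hairpins are printed for the locus that held its level in the KO library and for a member of the locus that did not. Both mature strands are in capitals. They run 5′ to 3′ as RNA, and the loop between the strands is 22 nt in Mir34a and 14 nt in Mir34b.
Mir34a: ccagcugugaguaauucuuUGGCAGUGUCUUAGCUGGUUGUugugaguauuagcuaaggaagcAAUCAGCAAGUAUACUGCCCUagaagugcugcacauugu
Mir34b: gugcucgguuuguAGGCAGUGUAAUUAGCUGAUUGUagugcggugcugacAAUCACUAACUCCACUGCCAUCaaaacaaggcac

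In the resting KO macrophages, all 4 miR-34b/c strands were lower than in either WT library, and miR-34a-5p was not. miR-34c-5p, the most abundant strand of its locus, was 5.42-fold lower in KO than the WT mean. The other 3 strands of the locus were between 4.33-fold and 16.9-fold lower. miR-34a-5p in KO lay between the WT libraries, at 96.4% of their mean. In 3′F no member reached a 2-fold difference from WT.

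miR-34a-5p, the strand of the family most studied as a p53 target, stood at 163 RPM (157 to 169) for WT A and 138.8 RPM (132 to 146) for WT B, with KO at 145 RPM (140.1 to 151) and 3′F at 128 RPM (123 to 134). KO fell inside the range of the WT libraries and 3′F below it. Against the WT mean of 151 ± 17.1 RPM (SD, n = 2), KO had a log2 ratio of -0.05 and 3′F one of -0.23, and WT B differed from WT A by -0.23. Here and below, a log2 ratio is a difference of log2(RPM + 1) values, which understates the change of low miRNAs, and a fold is a ratio of RPM levels.

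miR-34c-5p stood at 193 RPM (187 to 199.99) for WT A and 180.05 RPM (172 to 188) for WT B, with KO at 34.5 RPM (31.9 to 37.2) and 3′F at 147 RPM (141 to 153). In the same order, these levels rest on 3300.5, 2054.5, 657.5 and 2377.5 counts. The KO library stood apart from the other 3, and the 3′F library lay below both WT libraries but far closer to them than to KO. Against the WT mean of 187 ± 9.38 RPM (SD, n = 2), KO was lower by 2.40 on the log2 scale, with folds of 5.61 against WT A and 5.23 against WT B. WT B differed from WT A by -0.10. The position of miR-34c-5p among all miRNAs of its library, counted from the most abundant, was 110 for WT A, 111 for WT B and 114 for 3′F, but 173 for KO, whereas miR-34a-5p held positions between 111 and 119 in all 4 libraries.

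miR-34b-5p, which carries the same seed as miR-34a-5p, measured 8.76 RPM (7.49 to 10.3) for WT A and 8.72 RPM (7.21 to 10.7) for WT B, with KO at 2.02 RPM (1.45 to 2.73) and 3′F at 7.81 RPM (6.54 to 9.26). The KO interval did not meet that of any other library. The log2 ratio of KO to WT was -1.69. This line holds reads shared with another line, described below, so its levels depend on how those reads were split.

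miR-34b-3p measured 10.5 RPM (9.11 to 12.2) for WT A and 12.4 RPM (10.5 to 14.6) for WT B, with KO at 1.52 RPM (1.06 to 2.18) and 3′F at 8.71 RPM (7.38 to 10.3). KO was again the lowest library, 7.53-fold below the WT mean, with a log2 ratio of -2.30.

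miR-34c-3p, the scarcest member, was found with 51 (WT A), 47 (WT B), 4 (KO) and 62 (3′F) counts, or 2.99, 4.12, 0.21 and 3.83 RPM. With 4 counts the KO level is known only roughly. From the counts of both WT libraries together, the fold of WT over KO was 16.4, with a counting interval of 6.21 to 61.5, and the log2 ratio on the RPM scale was -1.91. miR-34a-3p, the other arm of the miR-34a hairpin and not a member, gave 11 (WT A), 5 (WT B), 10 (KO) and 8 (3′F) counts, too few to separate any library from another.

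**Figure D1:**
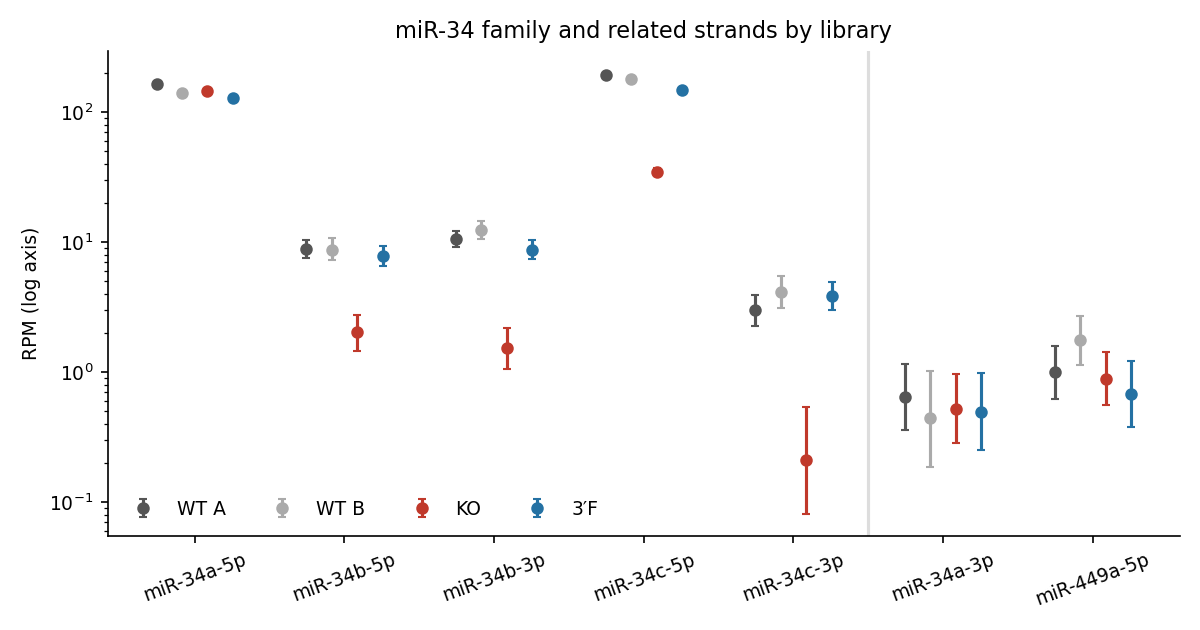
Level in RPM (log axis) of the 5 members and, right of the grey line, of miR-34a-3p and miR-449a-5p. Points are the 4 libraries and bars are 95% Wilson intervals of the counts. KO lies below the other 3 libraries for the 4 miR-34b/c strands, with 34.5 against 147 to 193 RPM for miR-34c-5p, and within their range for miR-34a-5p.

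The order of the members also differed between libraries. In WT A, WT B and 3′F the order from highest to lowest was miR-34c-5p, miR-34a-5p, miR-34b-3p, miR-34b-5p and miR-34c-3p. miR-34c-5p and miR-34a-5p did not overlap between the WT libraries, at 180.05 to 193 against 138.8 to 163 RPM. The intervals of miR-34b-3p and miR-34b-5p overlapped within each WT library, so their order is not settled at this depth. In KO miR-34a-5p was first at 145 RPM and miR-34c-5p second at 34.5 RPM. Ligation of small RNAs depends on their sequence, so levels of different strands in 1 library are only a rough guide to the amounts in the cell, while ratios of the same strand between libraries are not affected in this way.

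Set against all measured miRNAs, the miR-34b/c strands were among the few that were far below WT in KO. A miRNA was called lower when its log2(RPM + 1) value was at least 1 (2-fold on that scale) below both WT A and WT B. Among the 251 miRNAs with a mean of at least 10 RPM, 1.59% (4) were called lower in KO, and 2 members passed this minimum, miR-34a-5p (not called) and miR-34c-5p (called). The count of 4 rose to 9 when WT A was left out, and was 6 when WT B was left out. At a mean of at least 1 RPM, which all 5 members passed, 1.82% (8 of 439) were called lower in KO. These 8 were miR-146a-5p, the deleted miRNA, the 4 miR-34b/c strands, miR-451a, miR-504-5p and miR-7679-5p. The 8 became 16 when WT A was left out, 11 when WT B was, and 15 when plain RPM ratios were used, with 4 members among them each time. Since the family was selected on this contrast, these shares are given as background only. Counted from the lowest log2 ratio of the 439 miRNAs, miR-34c-5p was 2nd, miR-34b-3p 4th, miR-34c-3p 5th and miR-34b-5p 6th, while miR-34a-5p was 199th. The median log2 ratio was -1.91 over the 5 members and -0.01 over the 439 miRNAs. Between the WT libraries, 4 of the 439 miRNAs differed 2-fold on that scale, none of them a member.

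The size of the KO difference was also set beside miRNAs of a similar level. Of the 40 miRNAs outside the family whose WT mean lay within 2-fold of that of miR-34c-5p, the lowest log2 ratio in KO was -0.94, against -2.40 for miR-34c-5p. For miR-34b-3p the lowest of 77 such miRNAs was at -1.10, for miR-34b-5p the lowest of 79 was also at -1.10, and for miR-34c-3p the lowest of 104 was at -1.17. Each of the 4 strands lay below every miRNA outside the family taken for its level. miR-451a, at -2.31, had a WT level just above the range taken for miR-34b-3p. Since the family was selected on this contrast, these positions too are background only. Of the 39 miRNAs at the level of miR-34a-5p, 16 had a lower log2 ratio in KO than it had.

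**Figure D2:**
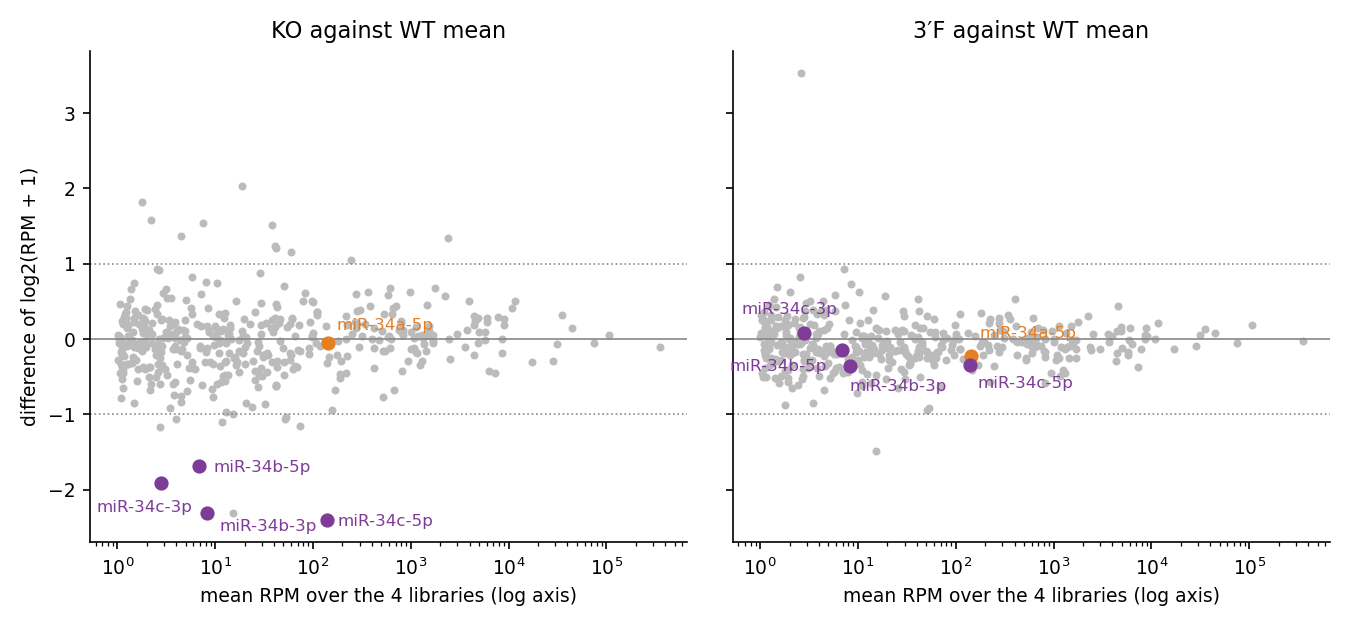
Log2 ratio to the WT mean (difference of log2(RPM + 1)) in KO (left) and 3′F (right) against the mean level over the 4 libraries (log axis), for miRNAs with a mean of at least 1 RPM. Grey points are other miRNAs, without miR-146a-5p, the orange point is miR-34a-5p and the purple points are the miR-34b/c strands, and dotted lines mark a difference of 1 (2-fold on this scale). In KO the purple points lie between -1.69 and -2.40, and in 3′F between 0.08 and -0.36. The highest point on the right, at 3.53, is the line listed as miR-146swap-5p, at 10.6 RPM in 3′F and 0 RPM in the other libraries. Ligation depends on sequence, so that RPM value is only a rough guide to the amount of this strand in the cell.

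Counting miR-34b/c against miR-34a-5p within each library compares the loci without any scaling between libraries. For each count of miR-34a-5p WT A gave 1.32 counts of miR-34b/c (1.26 to 1.39), WT B gave 1.48 (1.39 to 1.58), KO gave 0.263 (0.242 to 0.285) and 3′F gave 1.30 (1.23 to 1.38), with exact binomial intervals. KO stood alone, and the interval of 3′F overlapped that of WT A but not that of WT B. The WT mean was 1.40 ± 0.110 (SD, n = 2). The ratio in KO was 5.33-fold lower than that mean, or -2.42 on the log2 scale, against -0.11 in 3′F and 0.16 for WT B over WT A. From the 5p strands alone the KO value was -2.37, and from the 3p strands alone it was -3.08.

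Expressed as a share of all counts of the 5 members, miR-34b/c made up 57.0% (WT A), 59.7% (WT B), 56.6% (3′F) and 20.8% (KO). The summed level of the 5 members came to 378.5 RPM (WT A), 344 RPM (WT B), 184 RPM (KO) and 296 RPM (3′F). In KO this sum fell by 178 RPM from the WT mean, and miR-34b/c accounted for 96.9% of that difference. miR-34a-5p alone was 79.2% of what was left of the family in KO.

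**Figure D3:**
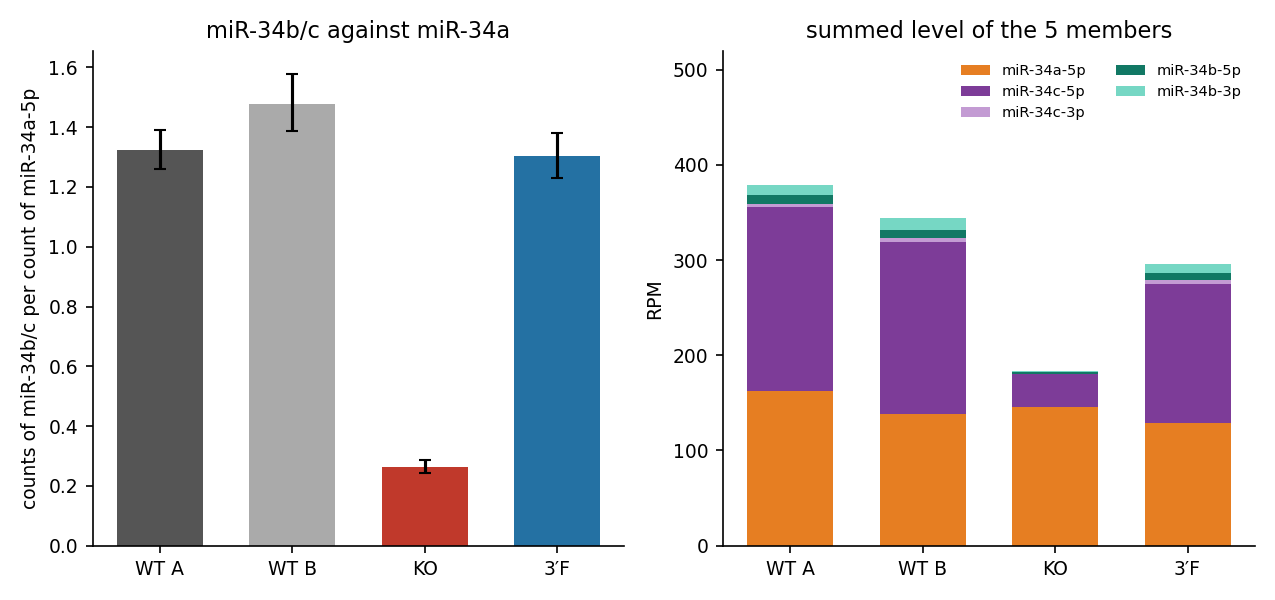
Left, counts of the 4 miR-34b/c strands per count of miR-34a-5p in each library, with exact 95% intervals of the counts. Right, RPM of the 5 members stacked by strand; miR-34a-5p, the lowest segment, is between 128 and 163 RPM in every library, while the segments above it shrink in KO, where the ratio on the left is 0.263 against 1.30 to 1.48 elsewhere.

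Within the miR-34b/c cluster, the hairpins kept their proportion as the lines were counted. Both arms of miR-34c together gave 10.2 counts per count of both arms of miR-34b for WT A, 8.74 for WT B, 9.80 for KO and 9.12 for 3′F, with overlapping intervals. The miR-34b hairpin was at 19.3 RPM (WT A), 21.1 RPM (WT B), 3.54 RPM (KO) and 16.5 RPM (3′F), a log2 ratio of -2.22 in KO. The miR-34c hairpin was at 196, 184, 34.7 and 151 RPM in the same order, a log2 ratio of -2.42 in KO. As counted, the neighbors in the cluster were lower in KO by nearly the same factor, 5.70-fold and 5.49-fold. The miR-34b sum includes miR-34b-5p, whose counts may be reads shared with miR-34c-5p, so this likeness depends on the split described below. The 3p strands, which hold no fractions, were 7.53-fold (miR-34b-3p) and 16.9-fold (miR-34c-3p) lower, the latter from 4 KO counts.

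The arms of miR-34a and miR-34c were used unequally. miR-34a gave 253 counts of its 5p strand per count of its 3p strand for WT A, 317 for WT B, 278 for KO and 260 for 3′F. As the lines were counted, miR-34b gave slightly more 3p than 5p in WT A, WT B and 3′F. The 5p-to-3p ratios there were 0.831 (0.666 to 1.04), 0.706 (0.543 to 0.923) and 0.897 (0.697 to 1.14), in that order. The KO ratio was 1.33 (0.787 to 2.20). Only the WT B interval excludes 1, and the miR-34b-5p counts depend on how shared reads, described below, were split. Which arm of miR-34b was used more is therefore not settled. miR-34c gave mainly its 5p strand, with ratios of 64.7 (WT A), 43.7 (WT B) and 38.3 (3′F) against 164 for KO (63.9 to 606). Both KO ratios were the highest of the 4 libraries, but their intervals overlapped with that of at least 1 WT library. Over the whole cluster the 3p strands were 6.28% of the counts for WT A (5.51 to 7.11), 8.03% for WT B (6.96 to 9.20), 4.53% for KO (3.14 to 6.30) and 7.50% for 3′F (6.53 to 8.56). The KO share lay below both WT shares, and its interval overlapped that of WT A.

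**Figure D4:**
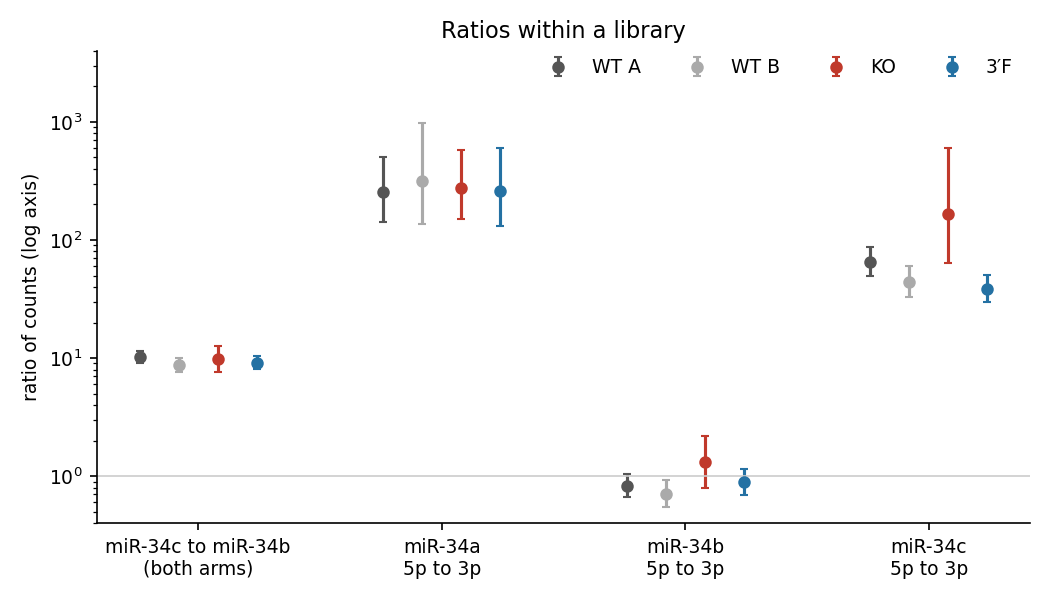
Ratios of counts within a library (log axis) for miR-34c against miR-34b with both arms summed, and for the 5p against the 3p arm of each hairpin. Bars are exact 95% intervals of the counts. The miR-34c to miR-34b ratio stays between 8.74 and 10.2, and the KO points of the miR-34b and miR-34c arms, at 1.33 and 164, are the highest of their sets with wide intervals.

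Some reads fit more than 1 line of the table and were shared out as fractions, and this touched the family at a single place. The counts of miR-34b-5p and miR-34c-5p were not whole in any of the 4 libraries, while those of miR-34a-5p and of both 3p members were whole in all of them. Added together, miR-34b-5p and miR-34c-5p gave whole numbers in each library, 3450 (WT A), 2154 (WT B), 696 (KO) and 2504 (3′F). Such sums are what an even split of reads between these lines would give, though the rule used for sharing is not given in the sources used here. If it was an even split between these 2 lines, at most 299 (WT A), 199 (WT B), 77 (KO) and 253 (3′F) reads were shared, since no line can hold more than its own count. Whichever line owned them, miR-34c-5p would then lie between 185 and 202 RPM for WT A, 171 and 189 for WT B, 32.4 and 36.5 for KO, and 139.0 and 155 for 3′F. These bounds leave KO far below the other libraries. For miR-34b-5p the same assumption allows all of its counts to be shared reads, so its own level and KO ratio depend on the split. The sum of both lines does not depend on the split, and was 202, 189, 36.5 and 155 RPM in that order, a log2 ratio of -2.39 in KO. The 3p strands, with whole counts throughout, gave 13.5, 16.5, 1.73 and 12.5 RPM in sum, a log2 ratio of -2.55 in KO.

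In the 3′F library the miR-34b/c strands lay closer to WT than in KO. All 4 miR-34b/c strands together were at 167 RPM (161 to 174), against 216 and 205 RPM in the WT libraries and 38.2 RPM in KO (35.5 to 41.1). The 3′F sum was below both WT libraries, with a log2 ratio to their mean of -0.33, and its interval met neither of theirs. Among miRNAs of a similar WT level, 3 of 40 had a lower log2 ratio in 3′F than miR-34c-5p, at -0.34. For miR-34a-5p these were 8 of 39 and for miR-34b-3p 18 of 77. For miR-34b-5p they were 43 of 79 and for miR-34c-3p 77 of 104. None of the 5 members was called lower in 3′F, where 0.797% (2 of 251) of the miRNAs with at least 10 RPM and 0.456% (2 of 439) of those with at least 1 RPM were called, namely miR-146a-5p and miR-451a. At the lower minimum the count became 4 when either WT library was left out, again with 0 members. At any size of difference, 4 of the 5 members lay below both WT libraries in 3′F, where 42.6% of the 439 miRNAs did. miR-34c-3p was the exception, between WT A and WT B. The median log2 ratio in 3′F was -0.23 over the members and -0.08 over the 439 miRNAs. Set directly beside 3′F, KO was 4.26-fold lower for miR-34c-5p and 4.38-fold lower for the miR-34b/c sum, while miR-34a-5p was 0.18 higher on the log2 scale. The wild-type strand miR-146a-5p was at no more than 13.4 RPM in both of these libraries, but 3′F carries the altered miR-146a. By qRT-PCR, the paper found the altered strand at levels similar to wild-type miR-146a in most tissues and cells examined. It rates that measure as far more accurate than read counts, because ligation depends on sequence.

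The miR-449 strands, which carry the same seed and could add to the same targeting, were scarce. miR-449a-5p was counted 17 (WT A), 20 (WT B), 17 (KO) and 11 (3′F) times, at most 1.75 RPM. miR-449c-5p had between 0 and 2 counts, and miR-449b had 0 counts in every library, where the limit taken for a count of 0, 3 counts, is 0.263 RPM in the shallowest. The 5p strands of miR-34 and miR-449 in sum, with miR-34c-5p counted by its family name, came to 366 RPM (WT A), 329 RPM (WT B), 183 RPM (KO) and 284 RPM (3′F). KO thus held 52.6% of the WT mean of this pool, a log2 ratio of -0.92, against -0.29 for 3′F.

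Other miRNAs described as raised by p53 were read from a list of 11. Of these, 9 had a mean of at least 1 RPM, and on the log2(RPM + 1) scale 0 were called lower or higher in KO or in 3′F. Since only 8 of all 439 miRNAs were called lower and 9 higher in KO, a list of this size would hold few calls in any case. The median log2 ratios of the list were -0.11 in KO and -0.20 in 3′F, against -0.01 and -0.08 over the 439 miRNAs. miR-192-5p, the most changed upward, was at 248 RPM (WT A), 222 RPM (WT B), 357 RPM (KO) and 272 RPM (3′F). miR-107-3p was at 141, 142, 139 and 115 RPM. miR-143-3p was lower in both mutants, at 4.74, 4.91, 2.10 and 2.22 RPM. This is more than 2-fold below both WT libraries as a ratio of RPM levels and short of 2-fold on the log2(RPM + 1) scale, with log2 ratios of -0.91 in KO and -0.86 in 3′F.

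Markers of other cell types were followed beside the family, since bulk libraries cannot tell fewer cells of a type from less RNA per cell. The myeloid miRNAs were all present, with miR-223-3p at 1466 to 1636 RPM, and 0 of 5 were called, with median log2 ratios of 0.00 in KO and -0.08 in 3′F. Of 11 miRNAs of ciliated and other epithelial cells, 6 had a mean of at least 1 RPM and 0 of these were called. Their summed level reached 623 RPM (WT A), 846 RPM (WT B), 445 RPM (KO) and 613 RPM (3′F), so KO was the lowest library here too, with a median log2 ratio of -0.46. miR-200b-3p made up most of that sum, at 512, 707, 358 and 510.1 RPM. The other miRNAs of the same family with a mean of at least 1 RPM were also below both WT libraries in KO. Their log2 ratios were -0.85 for miR-429-3p, -0.48 for miR-200a-3p and -0.43 for miR-200c-3p, beside -0.77 for miR-200b-3p. miR-203-3p was at 1.76, 1.23, 2.10 and 1.42 RPM. The remaining markers were scarce, and some went the other way. miR-141-3p, of the same family as miR-200b-3p, had 7.5 (WT A), 5.5 (WT B), 12 (KO) and 17.5 (3′F) counts. miR-375-3p had 1, 0, 6 and 5 counts in the same order, so both were higher in the mutants than in WT. miR-205-5p had 0 to 3 counts, and the miR-449 counts are given above. The part of epithelial RNA in the miR-34b/c difference was not tested.

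The erythroid miRNAs moved in both mutant libraries. Their sum reached 93.2 RPM (WT A) and 94.1 RPM (WT B) against 36.5 RPM (KO) and 43.3 RPM (3′F). Of the 2 above the minimum, 1 was called lower in KO and in 3′F. This was miR-451a, made almost only in red cells, at 18.7, 30.0, 4.09 and 8.03 RPM. miR-486a-5p, which made up most of the sum, was at 74.1, 63.5, 32.3 and 35.2 RPM and was not called. The part of erythroid RNA in the miR-34b/c difference was not tested. The stromal miRNAs summed to 10.4 and 10.7 RPM in the WT libraries, 7.51 in KO and 7.19 in 3′F. Of the 3 above the minimum 0 were called, and miR-143-3p, described above, was the one that was lower in both mutants. The lymphoid miRNAs summed to 248, 277, 305 and 245 RPM, with 0 of 2 called.

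**Figure D5:**
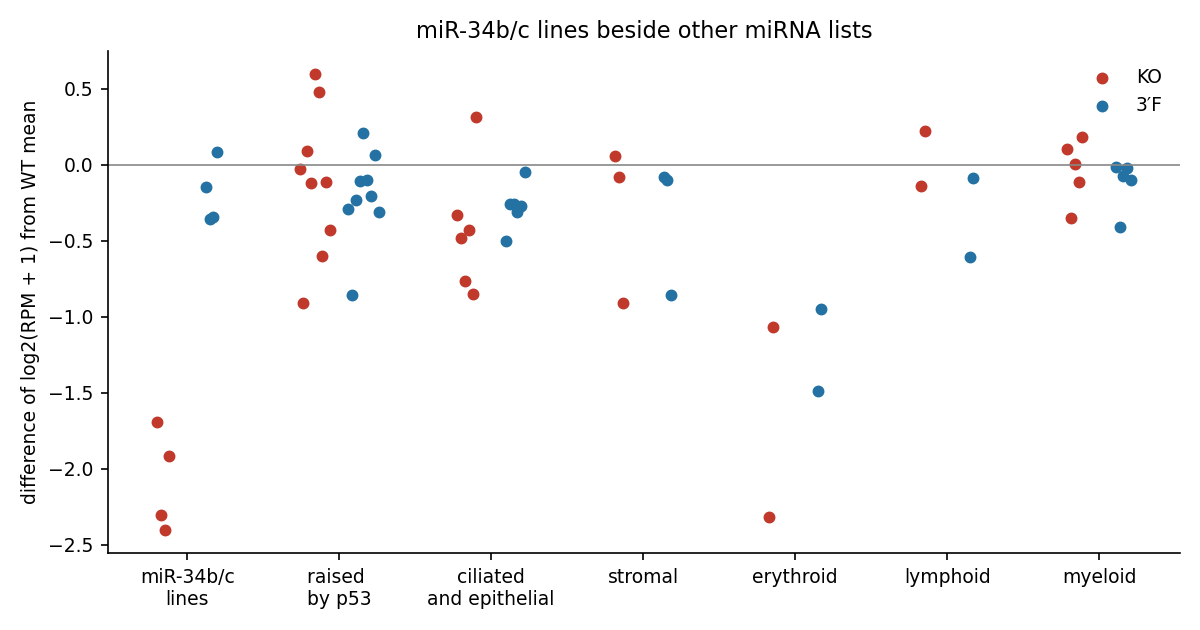
Log2 ratio to the WT mean (difference of log2(RPM + 1)) in KO (red) and 3′F (blue) of the 4 miR-34b/c strands and of each listed miRNA with a mean of at least 1 RPM. Each point is a miRNA. The miR-34b/c strands lie between -1.69 and -2.40 in KO, and among the lists only miR-451a, in the erythroid column, lies as low.

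The profile of each locus over the 4 libraries was last set beside those of the other 249 miRNAs with a mean of at least 10 RPM, using the Euclidean distance of centred log2(RPM + 1) values. Nearest to miR-34c-5p were miR-504-5p (distance 1.06), miR-451a (1.13) and miR-147-5p (1.14), against a median distance of 2.04. miR-504-5p was at 79.3, 94.7, 38.6 and 85.8 RPM (WT A, WT B, KO, 3′F), and miR-147-5p at 11.7, 16.0, 5.92 and 13.2 RPM. Both were lowest in KO, but by far less than miR-34c-5p. miR-34a-5p lay at a distance of 2.01 from miR-34c-5p, close to that median. Nearest to miR-34a-5p were miR-322-5p (0.0857), miR-505-3p (0.0882) and miR-181d-5p (0.0961), against a median of 0.402, and all 3 had nearly level profiles. With 4 points per profile these distances are a description. Those from miR-34c-5p largely restate its low KO level, on which the family was selected.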

How the data were processed

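Per the labels, small RNA libraries were made from total BMDM RNA with the NEBNext small RNA kit, with inserts of about 18 to 35 bp. The submitters' processing notes name cutadapt 1.8.3. The aligner, counter, genome build and miRNA release used for these libraries are not given in the sources used here. The table deposited by the authors gives an estimated count, often a fraction, on each of 2129 lines. Beside it the authors give an RPM value, which is that count per 1000000 of its library's summed lines. A miRNA listed on several lines was represented by its line of highest total.

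KO and 3′F were compared with the WT mean on the log2(RPM + 1) scale, and no p-value was computed. On that scale, a miRNA was called at 2-fold or more from each of WT A and WT B, in 1 direction. Wilson intervals (95%) were used for levels and exact binomial intervals for ratios of rounded counts. A floor of 3 counts is 0.157 to 0.263 RPM. Library totals bound this precision. The rule for calls was tested on simulated data with changes larger than 2-fold, so its behavior near that threshold was not tested.

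The members, the lists (general knowledge) and the rule for naming miRNAs were chosen with earlier results of these data known. Named were the members, miRNAs with the seed of miR-34a-5p, the listed miRNAs, miR-146a-5p and the 3 nearest profiles of miR-34c-5p and miR-34a-5p; miR-7679-5p was named after its values were seen. miR-200c-3p and miR-141-3p are in both the p53 and the epithelial list, miR-143-3p and miR-145a-5p in both the p53 and the stromal list.

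The alternatives tried were TMM factors (edgeR 4.0.16), DESeq2 1.42.0 size factors from rounded counts, RPM with each miRNA entering the total once, a pseudocount of 0.1, other minimums and folds, each WT library left out and, chosen after seeing the data, other splits of shared reads and calls on plain RPM ratios. Python 3.11.15, scipy 1.17.1 and R 4.3.3 were used. mRNA and protein data were not analysed here.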

Additional observations from a re-analysis of the deposited data

How the results depend on the processing

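Of 138 values under alternatives, 115 stayed within their limits. For a log2 ratio the limit was a shift smaller than the SD of the WT libraries, and for a count of calls a factor of 1.5. With WT libraries this close, leaving 1 of them out shifts a log2 ratio by less than that SD. The 115 therefore include values that could not leave their limits. The log2 ratio of KO to WT of the miR-34b/c strands and their sum lay between -3.56 and -1.69 in all 32 alternatives. That of miR-34b-5p moved beyond its WT spread to -1.71 with each miRNA entering the RPM total once, -1.73 with TMM, -1.70 with DESeq2 size factors and -2.06 with a pseudocount of 0.1. The same pseudocount gave -2.83 for miR-34b-3p and -3.56 for miR-34c-3p. In 3′F, miR-34b-5p came to -0.078 (TMM), -0.094 (DESeq2) and -0.16 (pseudocount 0.1), and the miR-34b/c sum to -0.26 with TMM and -0.26 with DESeq2. The ratio of miR-34b/c to miR-34a-5p in KO was -3.08 from the 3p strands alone. With a minimum of 1 RPM or of 1 count, 4 members were called lower in KO in place of 1, and 8 of all miRNAs under each in place of 4. With plain RPM ratios at 1 RPM, chosen after seeing the data, 4 members and 15 of all miRNAs were lower in KO. At 1.5-fold, 15 of all miRNAs were lower in KO and 5 in 3′F, and at 3-fold 1 in 3′F. With 1 WT library left out, between 6 and 9 were lower in KO (9 without WT A) and between 2 and 4 in 3′F (4 without WT B). Without WT A, miR-34a-5p was at 0.07 in KO, and without WT B at -0.16; miR-34c-3p in 3′F was at -0.08 and 0.28. With all shared reads given to miR-34c-5p its KO ratio was -2.39, and with all given to miR-34b-5p it was -2.42. No paired analysis was possible because each mutant has a single library, which shares at most the culture letter A of the file columns with WT A, and 1 shared letter gives no pairs to block on; against WT A alone, miR-34c-5p was at -2.45 in KO. The KO level of miR-34c-3p rests on 4 counts, and 1 library per mutant leaves the spread between KO cultures unknown.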
